A study of Mus musculus with 6 samples.

Results

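Hmox1 and 9 further genes of the NRF2 antioxidant response are described here in KMWT1, a mouse glioma cell line, after lowering of YY1. The genes are the rows of the count tables whose symbol is Hmox1, Blvrb, Nfe2l2, Keap1, Nqo1, Slc7a11, Gclc, Gclm, Txnrd1 or Srxn1, 10 of 24982 gene symbols. All 10 passed the filter on low counts. Hmox1 was chosen by its level, which had been noted as lower with YY1 siRNA in these same libraries, so its values are a description without a test. The other 9 were chosen for their place in the pathway, with earlier results of these data known. RNA-seq counts were available for 3 samples given a control siRNA (samples 1, 2 and 3) and 3 given a pool of siRNAs against YY1 (samples 4, 5 and 6). YY1, a DNA-binding factor with zinc fingers, acts as an activator at some genes and a repressor at others, and the series asked how its loss alters expression relative to control siRNA. All 6 were transfected, grown in the same serum-containing medium and taken 48 hours later. No source used here says that the 3 samples of a group were grown separately, so the spread that the tests use may be technical.

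NRF2, encoded by Nfe2l2, is the transcription factor that switches on cellular defence against oxidants and electrophiles. KEAP1 holds it in the cytoplasm and presents it to a ubiquitin ligase built on CUL3, and oxidants block that step. NRF2 then pairs with small MAF proteins on antioxidant response elements near genes for heme breakdown, glutathione synthesis, quinone reduction and the thioredoxin system, while BACH1 competes for the same elements. In gliomas the pathway is known for its link to survival under oxidative stress and drug treatment.

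Libraries held 15738457 (sample 6) to 20644057 (sample 1) counts in genes. Levels are CPM, the usual scaling of counts to library size, normalised by TMM, a scaling that corrects for a few very abundant genes. At these depths 3 counts equal 0.145 to 0.191 CPM, and the least abundant of the 10 genes stood above 50 CPM in every library. Yy1 itself fell in all 3 YY1 siRNA samples, from 127 ± 0.826 to 79.2 ± 1.86 CPM (SD, n = 3; log2 fold change -0.68, edgeR adjusted p 0.00154), so the knockdown left 62.3% of control. It was the 1 gene of 12148 tested, 0.00823%, with an adjusted p under 0.05. Of 14 glioma stem and progenitor markers, 9 stood at 10 CPM or more, with Vim and Cd44 among them. The 4 under 1 CPM were Olig2, Prom1, Fabp7 and Gfap, the first 3 at 0 in all libraries. Hmox1 is abundant in macrophages. Of 16 microglia and macrophage markers, 13 stood under 1 CPM and 5 at 0 in all libraries, and the summed level of the list was 140.6 to 147 CPM in control libraries and 129 to 142 CPM in YY1 siRNA samples. Of the 3 tested, 1 had an unadjusted p under 0.05, Tmem119, a microglia marker named after its values were seen. It stood at 49.9 ± 2.12 CPM in control against 42.3 ± 2.90 CPM in YY1 siRNA samples (log2 fold change -0.24, edgeR adjusted p 0.309) with groups that did not overlap, and its part in the member values was not tested. In bulk RNA, fewer cells of a type and less RNA per cell cannot be told apart.

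**Figure D1:**
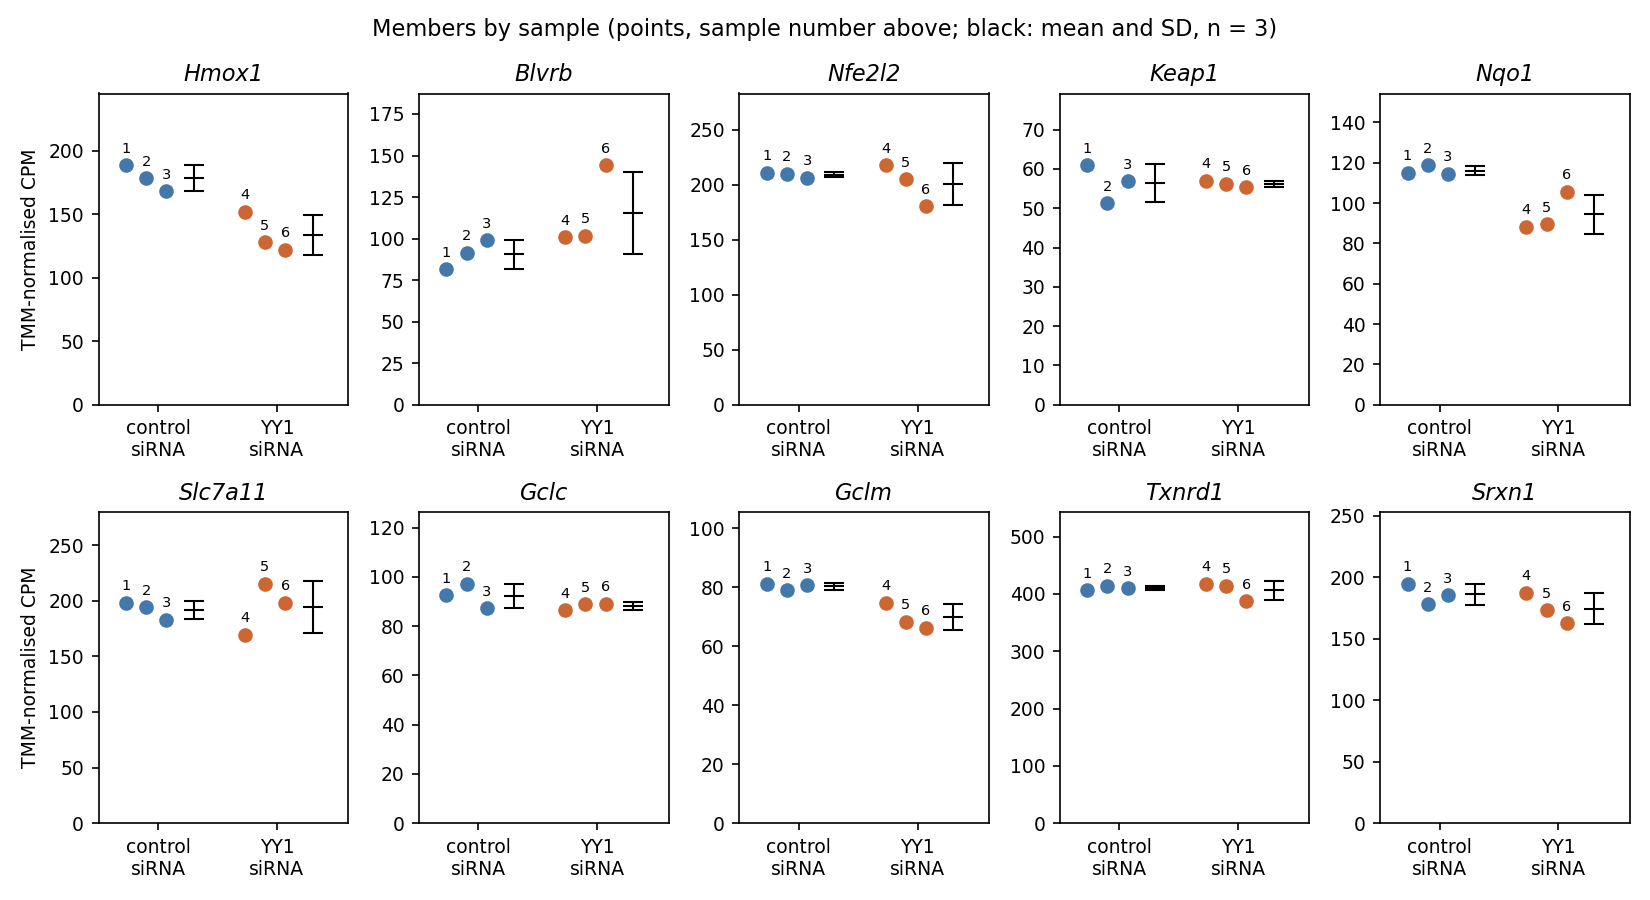
TMM-normalised CPM (y axis, from 0) of the 10 genes in each sample, with control siRNA samples 1 to 3 in blue and YY1 siRNA samples 4 to 6 in orange. Black bars beside the points are the mean and SD. Hmox1, Nqo1 and Gclm have all 3 YY1 siRNA samples below all 3 control samples, Blvrb has all 3 above, and the other 6 genes overlap.

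Of the 10 genes, Hmox1, which was chosen for being lower, had the lowest fitted change and Blvrb the highest. Hmox1 encodes heme oxygenase 1, the inducible enzyme that opens heme to biliverdin, iron and carbon monoxide. In mm10 it spans 75093621 to 75100589 of chromosome 8 (plus strand), with no other annotated gene over it. Its level was 189, 178 and 168 CPM in control samples 1, 2 and 3, and 152, 128 and 122 CPM in YY1 siRNA samples 4, 5 and 6. The YY1 siRNA samples all lay below the control samples, with sample 4 nearest to them. The means were 178 ± 10.2 and 134.0 ± 15.8 CPM (SD, n = 3), the fitted log2 fold change was -0.41 (SE 0.0879) and the level was 75.1% of control. These values chose the gene and are given without a test. Hmox1 had 1869 to 3924 counts per library.

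Hmox2, the constitutive heme oxygenase, stood at 74.4 ± 2.55 CPM in control against 75.7 ± 10.2 CPM in YY1 siRNA samples (log2 fold change 0.026, edgeR adjusted p 0.928). Its groups overlapped, with the highest value, 87.2 CPM, in YY1 siRNA sample 4. Within a library, Hmox1 counts were 2.49, 2.35 and 2.35 times those of Hmox2 in the control samples and 1.74, 1.78 and 1.80 times in the YY1 siRNA samples. This ratio was closer between the YY1 siRNA samples than Hmox1 alone was, and it contains the value that chose Hmox1.

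Blvrb encodes a flavin reductase that reduces biliverdin of the beta type. It spans 27447978 to 27466144 of chromosome 7 (plus strand). Its level was 81.5, 91.5 and 99.0 CPM in the control samples and 101, 102 and 144 CPM in YY1 siRNA samples 4, 5 and 6. All 3 YY1 siRNA samples lay above the control samples, but samples 4 and 5 exceeded control sample 3 by little, and sample 6 stood apart. Its log2 fold change came to 0.35 (SE 0.143, edgeR adjusted p 0.438), and it was 0.15 without sample 6, the shallowest library. Blvra, the reductase for the main biliverdin isomer, was far less abundant (14.5 ± 1.77 and 18.1 ± 3.36 CPM, log2 fold change 0.32, edgeR adjusted p 0.431), and its groups overlapped.

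For the factor and its inhibitor the groups overlapped. Nfe2l2 spans 75675513 to 75704641 of chromosome 2 (minus strand). It stood at 211, 210.0 and 207 CPM in control against 218, 205 and 180.4 CPM in YY1 siRNA samples. The YY1 siRNA samples fell on both sides of the control samples, with sample 6 lowest (log2 fold change -0.056, SE 0.0786, edgeR adjusted p 0.800, 95% interval 85.5% to 108% of control). Keap1, which spans 21229730 to 21239361 of chromosome 9 (minus strand), stood at 60.9, 51.3 and 56.8 CPM in control against 57.0, 56.2 and 55.4 CPM in YY1 siRNA samples. The 3 YY1 siRNA samples all lay inside the range of the control samples (log2 fold change -0.0045, edgeR adjusted p 0.989, 95% interval 88.9% to 112% of control). Gm24996 lies inside Nfe2l2 on the same strand and Gm16754 overlaps Keap1 on the other, and no source used here says whether the counting used strand.

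The promoters of the members were searched for the elements of this pathway because YY1 and NRF2 both bind short motifs near genes. RefSeq windows of 300 bases (GRCm38.p6, which is mm10), from 250 bases before to 50 after a transcription start, matched 8 of the 10 genes by symbol, with 11 windows in all. Hmox1 and Gclc had no window, so neither was searched for any of the motifs. The antioxidant response element core TGACNNNGC, on either strand, was in 4 of the 11 windows, those of Nfe2l2, Srxn1, Gclm and Txnrd1, against 12.4% of 32851 promoters. The NRF2 and small MAF core TGANTCAGC was in 1 window, that of Srxn1, against 1.19% of promoters. The AP-1 site TGANTCA, which lies inside the NRF2 and small MAF core, was in that window at 2 places and in 7.81% of promoters. The YY1 motif AANATGGC was in 0 of the 11 windows and in 6.05% of promoters. A match is a description of letters, not of binding. Sequence outside the windows was not searched, so a gene without a match may have elements elsewhere. The stretches of 140 bases before the start of the 3 genes with a match upstream of the start in that span are shown with Nqo1, the tested member with the lowest fold change, for comparison. Capitals mark the matches, which in Gclm and Txnrd1 read on the opposite strand, and each sequence runs 5′ to 3′ on the strand of its gene.
Srxn1, chr2:152105384-152105523, plus strand: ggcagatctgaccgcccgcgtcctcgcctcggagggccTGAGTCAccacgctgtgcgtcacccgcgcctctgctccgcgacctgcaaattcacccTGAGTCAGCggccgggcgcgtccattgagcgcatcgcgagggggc
Gclm, chr3:122245417-122245556, plus strand: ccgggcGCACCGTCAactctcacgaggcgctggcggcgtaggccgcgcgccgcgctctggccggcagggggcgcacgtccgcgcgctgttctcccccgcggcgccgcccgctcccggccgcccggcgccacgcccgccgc
Txnrd1, chr10:82859066-82859205, plus strand: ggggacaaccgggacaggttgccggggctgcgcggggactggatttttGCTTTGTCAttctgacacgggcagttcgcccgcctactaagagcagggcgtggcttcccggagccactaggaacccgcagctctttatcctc
Nqo1, chr8:107403206-107403345, minus strand: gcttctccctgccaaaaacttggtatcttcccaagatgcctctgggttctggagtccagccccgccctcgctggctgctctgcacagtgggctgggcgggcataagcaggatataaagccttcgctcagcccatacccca
In Srxn1 the NRF2 and small MAF core begins 45 bases before the start and a separate AP-1 match begins 102 bases before it. Its TGACNNNGC match begins 29 bases after the start and is not shown. The match in Gclm begins 134 bases before the start and that in Txnrd1 92 bases before the second of its 3 listed starts. The 4 genes with the antioxidant core in a window had fitted log2 fold changes of -0.056 (Nfe2l2), -0.093 (Srxn1), -0.20 (Gclm) and -0.014 (Txnrd1). The 4 with a window but no match inside it had -0.30 (Nqo1), -0.0045 (Keap1), 0.020 (Slc7a11) and 0.35 (Blvrb).

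Nqo1 encodes a quinone reductase that uses NADH or NADPH and is a standard readout of NRF2 activity. It spans 107388225 to 107403206 of chromosome 8 (minus strand), with no other annotated gene over it. Its level was 115, 119 and 114 CPM in the control samples and 88.3, 89.5 and 106 CPM in YY1 siRNA samples 4, 5 and 6. All 3 YY1 siRNA samples lay below the control samples, and sample 6 was the nearest to them, whereas for Hmox1 it was sample 4. The level was 81.4% of control (95% interval 72.2% to 91.7%), with a log2 fold change of -0.30 (SE 0.0793). Nqo1 did not pass the test over all genes (edgeR adjusted p 0.248, DESeq2 adjusted p 0.273). Without sample 6 the log2 fold change was -0.39 (edgeR adjusted p 0.0612), and the edgeR adjusted p ran from 0.0612 to 0.781 over the alternatives.

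Of the 3 genes for glutathione supply, Gclm had groups that did not overlap and Gclc and Slc7a11 had groups that did. Slc7a11 encodes the cystine importer that supplies cysteine for glutathione, and Gclc and Gclm encode the catalytic and modifier subunits of the enzyme that makes its first peptide bond. Gclm, which spans 122245557 to 122270732 of chromosome 3 (plus strand), stood at 81.2, 79.1 and 80.7 CPM in control against 74.8, 68.4 and 66.3 CPM in YY1 siRNA samples. The YY1 siRNA samples all lay below the control samples, whose spread was 1.12 CPM (SD). Its log2 fold change came to -0.20 (SE 0.0704, edgeR adjusted p 0.353), and the level was 87.0% of control (95% interval 78.2% to 96.7%).

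Gclc, which spans 77754535 to 77794485 of chromosome 9 (plus strand), stood at 92.5, 97.2 and 87.3 CPM in control against 86.5, 89.0 and 89.1 CPM in YY1 siRNA samples. Its groups overlapped (log2 fold change -0.066, edgeR adjusted p 0.726, 95% interval 86.2% to 106% of control). The ratio of Gclm to Gclc counts was 0.878, 0.813 and 0.925 in control and 0.864, 0.769 and 0.744 in YY1 siRNA samples. Samples 5 and 6 had the lowest ratios, while sample 4 lay among the control samples.

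Slc7a11, which spans 49892526 to 50443614 of chromosome 3 (minus strand), stood at 198, 194 and 183 CPM in control against 169.7, 215 and 198 CPM in YY1 siRNA samples. Sample 4 was the lowest of all 6 and sample 5 the highest, so the YY1 siRNA samples spanned the control samples (log2 fold change 0.020, edgeR adjusted p 0.943, 95% interval 88.9% to 116% of control). Slc7a11 shares its locus with 5 predicted genes and Gclm shares its own with Gm6061 and Gm17494, which makes their counts less certain.

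The groups overlapped for both thioredoxin system genes. Txnrd1 encodes the cytosolic thioredoxin reductase, a selenoprotein, and spans 82833951 to 82897712 of chromosome 10 (plus strand), where Eid3, Gm38560 and Gm47073 overlap it. It stood at 406, 414 and 409.8 CPM in control against 418, 414 and 387 CPM in YY1 siRNA samples, the most counts of any of the 10 genes. Its groups overlapped, with sample 6 lowest and sample 4 highest (log2 fold change -0.014, edgeR adjusted p 0.953, 95% interval 88.7% to 111% of control). Srxn1, which encodes the sulfiredoxin that restores overoxidised peroxiredoxins, spans 152105516 to 152111376 of chromosome 2 (plus strand). It stood at 195, 178 and 185 CPM in control against 187, 173 and 162 CPM in YY1 siRNA samples. Sample 4 lay within the control samples and samples 5 and 6 below them (log2 fold change -0.093, SE 0.0751, edgeR adjusted p 0.640).

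Of the 9 members other than Hmox1, 0 had an adjusted p under 0.05 with edgeR, DESeq2 or limma-voom. At an unadjusted p under 0.05 with edgeR there were 3, with Nqo1 and Gclm lower, beside 5.46% of all tested genes, and Blvrb higher, beside 5.38% (10.8% in either direction). All 3 YY1 siRNA samples lay below the controls for 2 of the 9, beside 8.91% of all genes, and above them for 1, beside 7.36%. The fitted change was below 0 for 7 of the 9, and their median was -0.056 beside 0.00070 over all genes. Without control sample 1 the 3 genes became 1, Nqo1, and without sample 6 they were Nqo1 and Gclm. Since the genes were listed with results of these libraries known, their counts are read no further.

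Expressed per kilobase of annotated exon, so that genes could be compared, Hmox1 had the highest control level of the 10, 102 CPM per kb. Nqo1 (74.7), Srxn1 (66.0), Txnrd1 (57.9) and Nfe2l2 (55.1) followed in CPM per kb. Blvrb (32.6), Gclc (24.5), Slc7a11 (13.8), Gclm (12.8) and Keap1 (12.01) made up the lower end. The 3 control samples of neighbours in this order did not overlap, except those of Gclm and Keap1. In YY1 siRNA samples Hmox1 was still the highest at 76.5 CPM per kb, followed by Srxn1 at 61.9 and Nqo1 at 60.8. Exon length was counted over all annotated transcripts, which lowers the level of genes with long minor forms, such as Slc7a11 with 13922 exon bases.

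Among tested genes of at least 10 CPM, the 5 whose log2 CPM followed that of Hmox1 most closely over the 6 samples were Lrpap1 (Pearson r 0.997), Galnt1 (0.994), Exoc2 (0.994), Aldh7a1 (0.993) and Orai1 (0.993). Of 8889 genes compared, Gclm ranked 41 (r 0.977), Yy1 325 (r 0.910) and Srxn1 821 (r 0.82). Nfe2l2 (r 0.66), Nqo1 (0.64), Gclc (0.49), Txnrd1 (0.45) and Keap1 (0.15) ranked from 1907 to 4244. Blvrb had an r of -0.85 and Slc7a11 one of -0.32. These are correlations over 6 libraries that share depth and handling, and are given as description. They contain the group difference that chose Hmox1, so genes lower with YY1 siRNA tend to rank high. Lrpap1, which encodes a chaperone of lipoprotein receptors, stood at 63.5, 58.5 and 57.2 CPM in control against 51.2, 42.3 and 39.9 CPM in YY1 siRNA samples.

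Regulators of NRF2 gave 0 of 16 tested genes past the adjusted threshold and 1 with an unadjusted p under 0.05, beside 10.8% of all tested genes. It was Syvn1, which encodes a ubiquitin ligase of the endoplasmic reticulum (48.4 ± 1.99 and 54.4 ± 2.599 CPM, edgeR adjusted p 0.425). Bach1, the repressor that competes with NRF2 at Hmox1, stood at 44.0 ± 1.81 CPM in control against 47.2 ± 3.14 CPM in YY1 siRNA samples. Samples 5 and 6 had 49.1 and 49.0 CPM, above every control sample, while sample 4 had 43.6 CPM, among them (log2 fold change 0.10, edgeR adjusted p 0.617). Cul3 (200.4 ± 5.43 and 193 ± 13.4 CPM), the NRF2 relative Nfe2l1 (412 ± 25.1 and 404 ± 35.2 CPM) and Dpp3 (73.1 ± 1.08 and 66.2 ± 5.24 CPM) had edgeR adjusted p of 0.807, 0.917 and 0.498. Sqstm1, the autophagy receptor that can sequester KEAP1, was the most abundant of this list at 1292 ± 55.5 and 1177 ± 124 CPM (edgeR adjusted p 0.602).

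A list of 43 other genes known as NRF2 targets had 37 tested, with 25 below 0, 12 above and a median log2 fold change of -0.067. None passed with edgeR, DESeq2 or limma-voom, and 6 had an unadjusted p under 0.05 with edgeR, all lower, beside 5.46% of all genes lower at that p. Pgd, an NADPH-producing enzyme of the pentose phosphate pathway, stood at 256, 236 and 230 CPM in control against 222, 198 and 181 CPM in YY1 siRNA samples (edgeR adjusted p 0.317). Prdx6, a peroxiredoxin that uses glutathione, stood at 132, 132 and 129 CPM in control against 120.5, 104 and 112 CPM in YY1 siRNA samples (edgeR adjusted p 0.317). For both genes the groups did not overlap. The other 4, named after their values were seen, were Cat (99.95 ± 6.53 and 85.8 ± 7.82 CPM), Taldo1 (284 ± 15.2 and 249.6 ± 22.1 CPM), Gstm1 (132.0 ± 9.72 and 109.9 ± 19.6 CPM) and Gsta4 (2.04 ± 0.359 and 1.28 ± 0.273 CPM).

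The number of these targets with a small p varied with the samples used. The 6 became 1 (Prdx6) without control sample 1, 3 without control sample 2, 4 without either sample 5 or sample 6, 9 (8 lower) without control sample 3 and 14 (12 lower) without sample 4. Other steps of the pentose phosphate pathway had smaller differences, with G6pdx, its entry enzyme, at 159 ± 10.5 and 153 ± 21.9 CPM and Tkt at 393 ± 30.4 and 352 ± 51.0 CPM (edgeR adjusted p 0.846 and 0.563). The ferritin genes Fth1 (2397 ± 52.9 and 2179 ± 179 CPM) and Ftl1 (1553 ± 51.6 and 1440.0 ± 114 CPM) had edgeR adjusted p of 0.589 and 0.655. All 3 YY1 siRNA samples of Fth1 lay below the controls, though sample 4, at 2325 CPM, was close to control sample 1 at 2339 CPM.

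**Figure D2:**
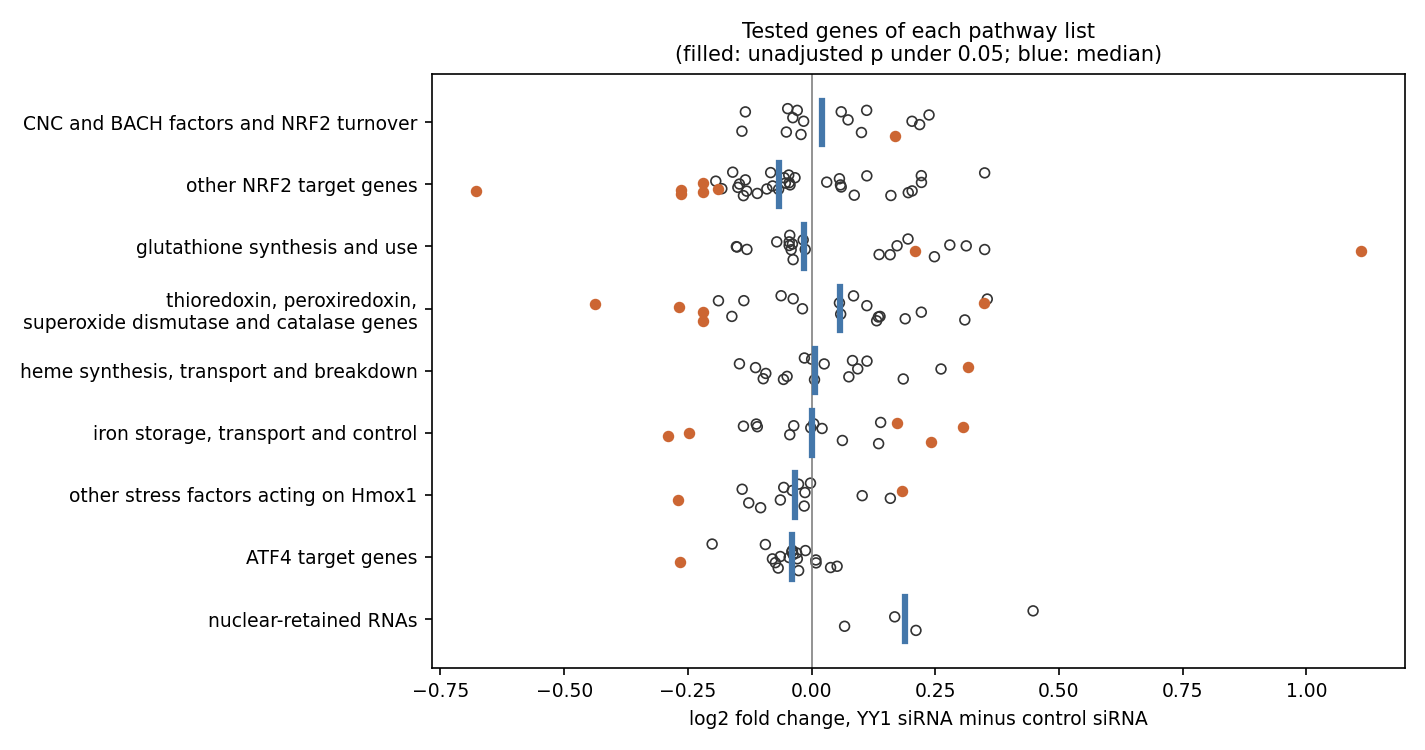
Log2 fold change (x axis, YY1 siRNA minus control siRNA) of each tested gene in the 9 pathway lists, with filled points for an unadjusted p under 0.05 and blue bars at the median. The 6 filled points of the other NRF2 target genes all lie below 0, while the 2 of the glutathione list lie above 0 and the iron list has filled points on both sides.

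Peroxide and superoxide enzymes had differences in both directions. Of 22 thioredoxin, peroxiredoxin, superoxide dismutase and catalase genes tested, 0 passed. At an unadjusted p under 0.05 with edgeR, 4 were lower and 1 higher, beside 5.46% lower and 5.38% higher of all tested genes. Of the 4 lower, Prdx6 and Cat were already counted among the other NRF2 targets, and Prdx3 and Sod3 were not. The higher one was Prdx5, a peroxiredoxin of mitochondria and peroxisomes, at 1001, 1023 and 1008 CPM in control against 1234, 1160 and 1467 CPM in YY1 siRNA samples. Its groups did not overlap, and sample 6 was the highest (log2 fold change 0.35, SE 0.0993, edgeR adjusted p 0.263). Prdx3, the mitochondrial peroxiredoxin, stood at 43.2 ± 1.58 and 35.9 ± 2.505 CPM (log2 fold change -0.27, edgeR adjusted p 0.265), and Sod3, the extracellular superoxide dismutase, named after its values were seen, at 16.6 ± 1.58 and 12.2 ± 2.21 CPM (log2 fold change -0.44, edgeR adjusted p 0.265). Prdx1 stood at 1312 ± 38.5 and 1530 ± 266 CPM and Txn1, the thioredoxin reduced by TXNRD1, at 447 ± 36.4 and 483 ± 73.9 CPM, with overlapping groups.

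Of 22 glutathione genes tested, 0 passed and 2 had an unadjusted p under 0.05, beside 10.8% of all tested genes. They were Ggt1, at 0.419 ± 0.139 and 0.929 ± 0.131 CPM, a level near the detection limit, and Glrx5, a mitochondrial glutaredoxin, at 29.2 ± 1.24 and 33.8 ± 3.82 CPM (edgeR adjusted p 0.283 and 0.431). Gss, the second enzyme of glutathione synthesis, stood at 19.9 ± 0.897 and 19.0 ± 0.942 CPM. Gpx4, the lipid peroxide reductase, stood at 255 ± 38.2 and 309.6 ± 99.0 CPM, and Gsto1 at 388 ± 8.48 and 384 ± 30.6 CPM.

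In the list for heme synthesis, transport and breakdown, 0 of 17 tested genes passed and 1, Blvra, had an unadjusted p under 0.05, beside 10.8% of all tested genes. The list median was a log2 fold change of 0.0060. Ppox, of heme synthesis, stood at 43.9 ± 4.51 and 49.9 ± 4.68 CPM, the heme transporter gene Slc48a1 at 288 ± 13.6 and 260.3 ± 20.9 CPM, and Pgrmc1, which encodes a heme-binding membrane protein, at 443 ± 17.4 and 479 ± 64.4 CPM. Of 16 iron genes tested, 0 passed, and 3 higher and 2 lower had an unadjusted p under 0.05, beside 5.38% higher and 5.46% lower of all tested genes. These included Steap3, an iron reductase gene (28.8 ± 1.89 and 23.6 ± 1.59 CPM, groups not overlapping, edgeR adjusted p 0.267), and the mitochondrial iron importer gene Slc25a28 (27.1 ± 2.66 and 33.6 ± 3.71 CPM, edgeR adjusted p 0.318). The other 3, named after their values were seen, were Ncoa4, the ferritin autophagy receptor gene (22.7 ± 2.40 and 19.0 ± 1.38 CPM), Slc11a2, an iron importer gene (43.0 ± 2.30 and 48.4 ± 2.27 CPM), and Fbxl5, an iron-sensing ligase gene (94.3 ± 6.70 and 111 ± 15.4 CPM). The transferrin receptor gene Tfrc stood at 134 ± 6.55 and 140.5 ± 13.7 CPM.

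Stress factors outside the NRF2 pathway that can act on Hmox1 gave 0 of 14 past the threshold and 2 with an unadjusted p under 0.05, beside 10.8% of all tested genes. These were Atf3 (19.7 ± 1.03 and 22.4 ± 0.783 CPM) and Nr1d1, a heme-binding nuclear receptor gene (119 ± 18.3 and 98.6 ± 10.3 CPM), with edgeR adjusted p of 0.454 and 0.444. Hif1a stood at 401 ± 15.3 and 384 ± 15.1 CPM and Atf4 at 404 ± 10.4 and 401 ± 25.8 CPM. ATF4 also drives Slc7a11, and of its 19 target genes tested 0 passed and 1 had an unadjusted p under 0.05, beside the same 10.8%. It was Atf5 (84.5 ± 5.597 and 70.2 ± 8.61 CPM, edgeR adjusted p 0.350). Aldh1l2 and Vldlr, 2 further ATF4 targets, had edgeR adjusted p of 0.473 and 0.910.

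Some library features differed between the YY1 siRNA samples. Nuclear-retained Malat1 stood at 516, 456 and 615 CPM in control against 362.5, 704 and 769.7 CPM in YY1 siRNA samples, and Neat1 at 1446, 1316 and 1683 against 1168, 1700.0 and 1788 CPM. Samples 5 and 6, high in both, were lower than sample 4 in Hmox1, Gclm, Srxn1, Nfe2l2, Txnrd1 and Keap1. Both were higher than sample 4 in Nqo1, Gclc, Slc7a11, Blvrb and Bach1. The nuclear-retained list had 0 of 4 tested genes past the threshold and 0 with an unadjusted p under 0.05, with Kcnq1ot1 at 6.70 ± 1.51 and 9.16 ± 3.85 CPM. The part of these features in the member values was not tested.

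**Figure D3:**
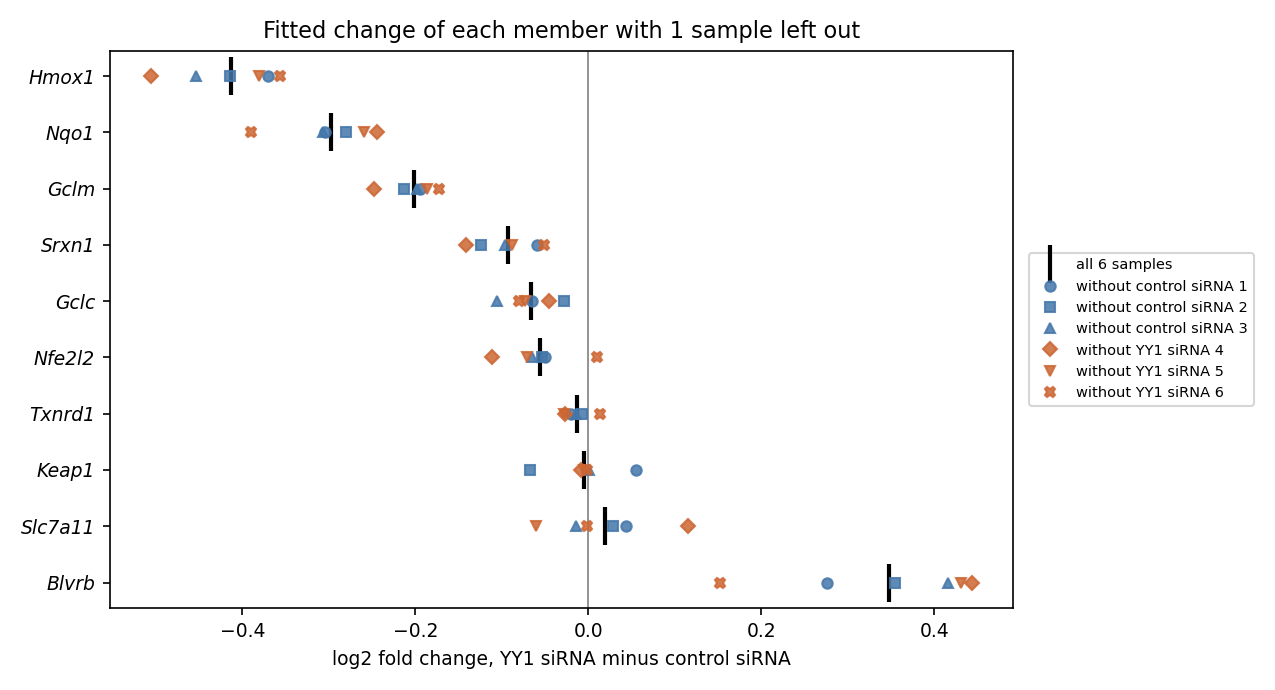
Log2 fold change (x axis, YY1 siRNA minus control siRNA) of the 10 genes fitted with all 6 samples (black bars) and with each sample left out (symbols). Hmox1 runs from -0.51 to -0.36, Nqo1 from -0.39 to -0.24 and Gclm from -0.25 to -0.17, while Blvrb runs from 0.15 to 0.44 and is lowest without YY1 siRNA sample 6.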

How the data were processed

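The authors deposited one table of raw counts per gene symbol for each of the 6 samples. The tools named in the submitters' processing notes are STAR (2.6.1a) and edgeR (3.30.0), with the build mm10; counter, gene models and strandedness: not given in the sources used here. The 2 rows that name no gene (7.87% to 11.3% of counts in no gene, 1.01% to 1.15% ambiguous) were left out. Counts were fitted with edgeR 4.0.16 in R 4.3.3 (filterByExpr, TMM, robust quasi-likelihood F test, two-sided) on 12148 genes, and p-values were adjusted over all of them by the method of Benjamini and Hochberg (threshold 0.05). Alternatives were RLE factors, library size alone, no filter, a filter of 1 CPM in 3 samples, DESeq2 1.42.0, limma-voom (limma 3.58.1) and leaving out each sample. Positions and exon lengths are from GENCODE M21 (mm10), to which 98.1% of symbols matched. The members and lists were chosen with earlier results of these data known. Named genes were the members, Yy1, from each list the 2 with the smallest p and the 2 most abundant, Hmox2, Bach1, Nfe2l1, Blvra and the 5 most like Hmox1. Cul3, G6pdx, Tkt, Txn1, Gss and Tfrc were named later for their roles, with values known. The fit was also run on simulated counts, and the outcome is not given here.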

Additional observations from a re-analysis of the deposited data

Results flagged for a closer look

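Counts that fell in no gene, which the comparisons leave out, made up 10.7% of sample 5 and 11.3% of sample 6, both given YY1 siRNA, above every control sample (9.03% at most), while sample 4 had 7.87%. In the same samples 5 and 6, Hmox1 stood at 128 and 122 CPM and Gclm at 68.4 and 66.3 CPM, against 152 and 74.8 CPM in sample 4, whereas Nqo1 was lowest in sample 4 at 88.3 CPM. Groups of 3 were too small for a check of single outlying samples.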

How the results depend on the processing

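No paired analysis was made because the labels, numbered 1 to 3 and 4 to 6, do not say whether samples were paired. Under the 12 alternatives, 0 of the 9 tested members and 0 pathway list genes passed the adjusted threshold. Genes changed overall numbered 7 with library size alone, 83 without a filter on low counts, 19 with DESeq2 and 1 to 41 with single samples left out (41 when sample 4 was dropped, 3 for sample 6, 2 for control sample 3); the cause was not tested. Hmox1 ran from -0.51 to -0.36. Of 719 fold changes of tested named genes under alternatives, 691 kept their direction and side of the threshold and 28, in 14 genes, changed sign. The 72 of the 6 genes given without a test (Hmox1 and the 5 most like it) moved by less than the spread between samples (1 SD). Leaving out 1 of 3 samples can hardly shift a group mean by that much, so this is no sign of stability. With another scaling, filter or tool, Keap1 turned to 0.0030 (RLE), 0.0035 (1 CPM filter) and 0.0011 (DESeq2) and Slc7a11 to -0.0015 (library size alone). With single samples left out, members near 0 ran from -0.11 to 0.0096 (Nfe2l2), -0.068 to 0.055 (Keap1), -0.061 to 0.12 (Slc7a11) and -0.028 to 0.013 (Txnrd1). Others that crossed 0 ran from -0.17 to 0.022 (G6pdx), -0.027 to 0.19 (Txn1), -0.082 to 0.092 (Hmox2), -0.077 to 0.035 (Nfe2l1), -0.058 to 0.046 (Gsto1), -0.017 to 0.44 (Gpx4), -0.0091 to 0.18 (Pgrmc1), -0.057 to 0.030 (Atf4), -0.086 to 0.014 (Vldlr) and -0.055 to 0.24 (Neat1). The counts of members and targets at an unadjusted p were examined after the data were seen.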
